A study of Mus musculus with 2 samples.

Results

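The 7 genes described here, H2-Aa, H2-Ab1, H2-Eb1, Cd74, H2-DMa, H2-DMb1 and Ciita, load and present peptides on MHC class II molecules, and all 7 were found by symbol among the 27998 genes of the count matrices. They were measured in retinal cells sorted from 8-month-old male mice of the CB6F1 strain with a Cx3cr1-YFP reporter. In the light-damaged group the mice were dark-adapted overnight, their pupils were dilated with atropine and phenylephrine, they spent 4 h under LED light of 10 klux, and the retinas were taken after 5 days back in ordinary light. The control group is labelled as having no light damage, and the labels do not say whether its mice were dark-adapted or dilated. Each group was 1 pool of retinas from 5 to 8 mice and 1 library made with the 10x Genomics 3' end kit, so a difference between the groups has no replicate check, and every interval given here is a 95% interval that covers counting error only. Cx3cr1, whose promoter drives the reporter, encodes the fractalkine receptor, and cells that use it little fall outside the sort.

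A class II molecule is a pair of chains that binds a peptide from ingested protein and shows it to helper T cells. H2-Aa and H2-Ab1 encode the alpha and beta chain of the mouse I-A molecule, and H2-Eb1 encodes the beta chain of I-E. Cd74, on chromosome 18, encodes the invariant chain, which fills the binding groove until the molecule reaches the endosome. H2-DMa and H2-DMb1 encode the chains of H2-M, which swaps the last piece of the invariant chain for a peptide. Ciita, on chromosome 16, encodes the coactivator that switches the whole set on, and interferon-gamma is its best known inducer in macrophages. In the healthy retina, resident microglia are known for low class II, while macrophages along vessels and at the borders of nervous tissue are known to hold more of it.

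Of the members 5 lie on mouse chromosome 17 (GRCm38, GENCODE coordinates), with H2-DMa at chr17:34119541-34139101, H2-DMb1 at chr17:34153072-34160230, H2-Ab1 at chr17:34257689-34269419 and H2-Eb1 at chr17:34305867-34316674 on the plus strand, and H2-Aa at chr17:34282744-34287823 on the minus strand. H2-DMb1 shares 27.4% of the 50-base words in the last 500 bases of its annotated transcripts with other genes, such as its neighbour H2-DMb2, and its counts are therefore uncertain. The annotation places other genes across H2-DMa on both strands, and antisense genes across H2-Eb1 and Ciita, and how reads there were assigned is not given in the sources used here.

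Class II promoters are known for an X box, bound by the RFX complex, followed by a Y box, bound by NF-Y, and Ciita acts through both. The promoter sequences of H2-Aa, H2-Eb1 and H2-DMb1 are shown because these genes were high in the same cells. Each runs from 250 bases before to 50 bases after the gene's start, from RefSeq (GRCm38.p6), at chr17:34287774-34288073 on the minus strand for H2-Aa, chr17:34305617-34305916 on the plus strand for H2-Eb1 and chr17:34152941-34153240 on the plus strand for H2-DMb1. Capitals mark ACNGATG, a core of the X box, and TGATTGG, a Y box, searched on both strands.
H2-Aa: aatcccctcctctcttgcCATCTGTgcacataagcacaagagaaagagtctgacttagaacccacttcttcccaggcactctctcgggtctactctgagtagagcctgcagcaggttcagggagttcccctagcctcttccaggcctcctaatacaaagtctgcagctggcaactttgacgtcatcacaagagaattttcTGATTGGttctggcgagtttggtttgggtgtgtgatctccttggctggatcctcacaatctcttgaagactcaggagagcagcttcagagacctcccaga
H2-Eb1: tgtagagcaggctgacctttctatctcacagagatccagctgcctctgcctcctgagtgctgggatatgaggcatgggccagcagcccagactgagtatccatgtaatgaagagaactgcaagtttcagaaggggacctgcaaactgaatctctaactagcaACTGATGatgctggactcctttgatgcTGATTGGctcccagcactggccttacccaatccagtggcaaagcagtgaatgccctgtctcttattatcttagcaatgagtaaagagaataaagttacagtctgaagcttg
H2-DMb1: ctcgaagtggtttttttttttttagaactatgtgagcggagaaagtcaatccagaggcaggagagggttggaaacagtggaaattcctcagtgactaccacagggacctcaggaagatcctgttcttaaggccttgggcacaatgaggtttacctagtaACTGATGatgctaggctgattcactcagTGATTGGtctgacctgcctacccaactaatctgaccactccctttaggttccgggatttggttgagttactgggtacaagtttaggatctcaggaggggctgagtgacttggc
In H2-Eb1 the Y box letters start 27 bases after the X box letters begin, and in H2-DMb1 28 bases. In H2-Aa the Y box letters are there, and the only match of the X box letters lies 182 bases upstream on the other strand. Of the 32851 promoters in RefSeq's table, 9.85% hold the X box letters, 7.82% the Y box letters and 0.703% both, and 5 promoters (0.0152%) hold them in this order on the gene's strand at one of these 2 distances. They are those of H2-Eb1, H2-DMb1, H2-DMb2, H2-Eb2 and BC051142. Of 2 entries for H2-DMa, that nearest the annotated start of the gene holds neither motif, and the other is not described here. No entry was matched for H2-Ab1, Cd74 and Ciita. The motif letters were chosen after these sequences had been read, and a match describes the letters, not binding. The 2 distances were taken from H2-Eb1 and H2-DMb1, so these 2 promoters were certain to be among the 5.

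The light-damaged library held 6821 barcodes with a median of 7351 UMIs (unique molecular identifiers, each a counted RNA molecule), and the control library 4003 barcodes with a median of 4846 UMIs. After filters on detected genes, mitochondrial UMIs and likely doublets 6430 light-damaged and 3824 control cells were kept, 10254 of 10824 barcodes in all. The libraries share 47 barcode sequences. Microglia were the cells with at least 20 UMIs per 10000 summed over P2ry12, Tmem119, Siglech, Gpr34 and P2ry13 (4398 light-damaged and 3381 control cells), perivascular macrophages those with at least 10 over Mrc1, F13a1, Cd163, Lyve1 and Cbr2 (83 and 52 cells), and other macrophages those with both sums under 10 (1166 and 244 cells). Cells past both limits, 2 light-damaged and 5 control, were held apart, and 781 light-damaged and 142 control cells lay between the limits. The 5 microglia markers summed to 3019 CPM (a gene's UMIs scaled to 1000000 UMIs of the cells summed) in light-damaged and 6185 CPM in control cells low for class II, so the sizes of the classes are not read as results. Against its label, the class of other macrophages held 21 light-damaged and 40 control cells with under 20 UMIs per 10000 of 10 pan-macrophage genes such as Csf1r and Tyrobp, and its cells low for class II carried 386 CPM of 6 rod photoreceptor genes in the light-damaged library and 29395 CPM in the control library. For some results the values without the cells low for pan-macrophage genes are given. The part of these cells in the other results, and that of the rod RNA, was not tested.

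Over all kept cells, the summed level of H2-Aa, H2-Ab1, H2-Eb1 and Cd74 was nearly the same in both libraries, at 2272 CPM in light-damaged and 2265 CPM in control cells, a ratio of 1.00 (0.992 to 1.01). The members went different ways within this sum. H2-Eb1 was at 300.1 CPM in light-damaged and 213 CPM in control cells (1.41-fold, 1.36 to 1.46), and H2-Aa at 392 and 295 CPM (1.33-fold, 1.29 to 1.37). H2-Ab1 was at 395 CPM in light-damaged and 387 CPM in control cells. Cd74 was 1.16-fold lower, at 1186 CPM in light-damaged and 1370 CPM in control cells, H2-DMa 1.31-fold lower, at 300.4 and 392 CPM, and H2-DMb1 1.28-fold lower, at 96.4 and 124 CPM. Ciita gave 37 UMIs in the light-damaged and 8 UMIs in the control library (1.64-fold, 0.752 to 4.08). None of the 6 members with at least 20 CPM was past 1.5-fold in either direction, where 7.15% of all measured genes were over 1.5-fold higher and 9.7% lower.

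The equal totals were spread differently over the classes, whose sizes are not read as results. Summed class II stood at 7704 CPM in light-damaged and 14219 CPM in control other macrophages, at 357 and 5550 CPM in perivascular macrophages, and at 322 and 400 CPM in microglia. Cells between the limits had 1804 CPM in the light-damaged and 18624 CPM in the control library. The sum was lower in the light-damaged library in each of these classes. Other macrophages made up 18.1% of light-damaged and 6.38% of control cells and held 79.6% and 44.0% of all class II UMIs. In the light-damaged library the intervals of perivascular macrophages (317 to 402 CPM) and microglia (316 to 328 CPM) overlapped, and in the control library those of all 3 named classes were apart.

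**Figure D1:**
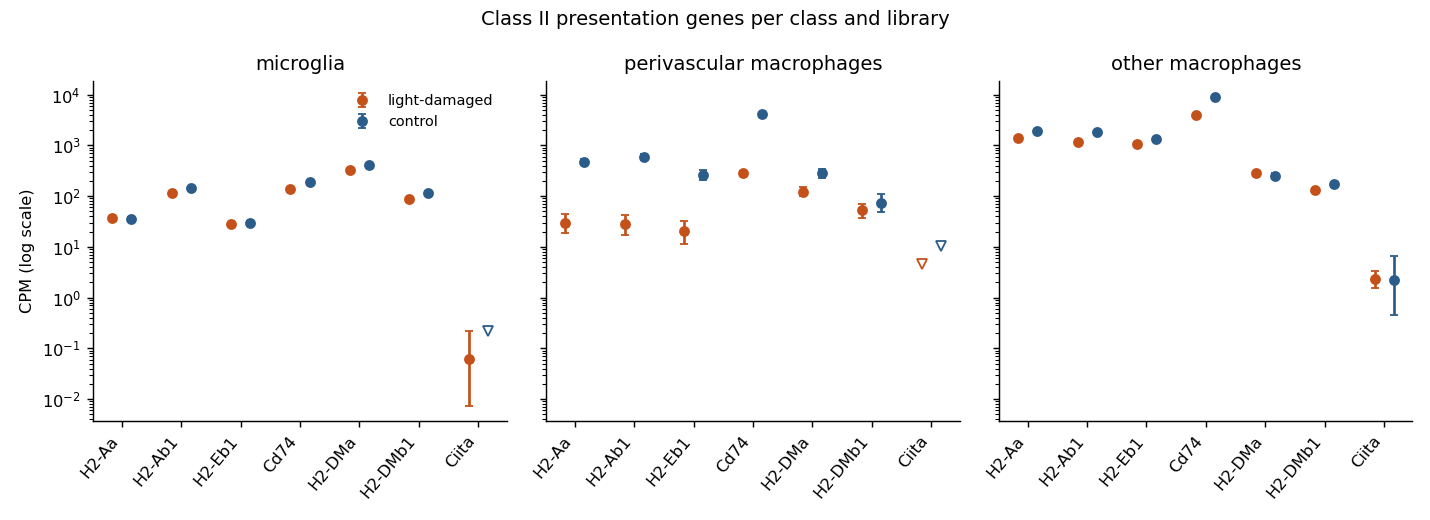
CPM (log scale) of the 7 genes in each class, light-damaged in orange and control in blue, with exact Poisson intervals; an open triangle marks the upper limit of a gene with 0 UMIs. The 4 core class II genes were 12.9-fold to 20.7-fold lower in light-damaged perivascular macrophages, and within 1.5-fold in microglia, at the class limits used.

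In microglia, at the class limit used, the members were slightly lower after light damage or level with the control. H2-DMa, the H2-M alpha chain gene, was the member with most UMIs there, at 321 CPM in light-damaged and 407 CPM in control microglia (1.27-fold lower, 1.23 to 1.31). H2-DMb1 was at 87.3 and 115 CPM (1.32-fold lower, 1.24 to 1.40). Cd74, the invariant chain gene, was at 141 CPM in light-damaged and 191 CPM in control microglia (1.36-fold lower, 1.30 to 1.42), and H2-Ab1 at 117 and 142 CPM (1.22-fold lower, 1.15 to 1.28). The intervals of these 4 genes exclude equal levels. H2-Aa, at 36.4 CPM in light-damaged and 36.0 CPM in control microglia, and H2-Eb1, at 27.8 and 30.1 CPM, had ratio intervals that include equal levels (0.915 to 1.12 and 0.827 to 1.03). Ciita had 2 UMIs in 4398 light-damaged and 0 UMIs in 3381 control microglia. Of the 6 measured members 0 were past 1.5-fold, against 5.44% of 5221 genes over 1.5-fold higher and 6.82% lower, and their median log2 ratio was -0.31, beside -0.02 over all measured genes. With likely doublets kept, the log2 ratios of H2-Aa and H2-Eb1 were 0.39 and 0.21. The 27 light-damaged and 31 control microglia high for class II, as defined below, held 43.7% and 39.8% of the class II UMIs of microglia. Without these cells, a choice made after seeing the data, the log2 ratio of H2-Aa was -0.45 (-0.70 to -0.20). That of H2-Eb1 was -0.53 (-0.80 to -0.26), and both intervals exclude equal levels. With the microglia and perivascular limits doubled together, 2353 light-damaged and 2952 control microglia were kept. The log2 ratios of H2-Aa, H2-Eb1 and Cd74 were then -1.16 (-1.42 to -0.90), -1.28 (-1.57 to -0.998) and -0.98 (-1.09 to -0.87), past 1.5-fold lower.

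In perivascular macrophages, which line vessels and are known for scavenging, the core class II genes were far lower after light damage. Cd74 was at 280 CPM in 83 light-damaged and 4232 CPM in 52 control cells (15.1-fold lower, 13.1 to 17.5). H2-Ab1 was at 28.0 and 580 CPM (20.7-fold lower, 13.3 to 33.8), H2-Aa at 29.2 and 475 CPM (16.2-fold lower, 10.5 to 26.3) and H2-Eb1 at 20.3 and 262 CPM (12.9-fold lower, 7.55 to 23.5). H2-DMa, at 123 CPM in light-damaged and 282 CPM in control cells, was 2.28-fold lower (1.71 to 3.05). H2-DMb1, at 52.1 and 74.6 CPM, had a ratio interval of 0.420 to 1.18 that includes equal levels, and Ciita had 0 UMIs in both libraries, which allows up to 3.82 CPM in light-damaged and 8.29 CPM in control cells.

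Of the 6 measured members 5 were over 1.5-fold lower and 0 higher, against 15.3% of 4952 genes lower and 21.8% higher, and their median log2 ratio was -3.80, beside 0.09 over all measured genes. In the control library the 24 perivascular macrophages high for class II had a median of 13.9 UMIs per 10000 of the 5 class markers and the 28 others a median of 20.3. With the perivascular and microglia limits doubled together, 23 light-damaged and 17 control cells were left. The log2 ratio of summed class II was then -2.46 in place of -3.96. Of the members, Cd74 then had a log2 ratio of -2.67 (-3.25 to -2.11) and H2-Aa of -1.77 (-3.70 to -0.04). The intervals of H2-Ab1 (-1.19, -3.24 to 0.79), H2-Eb1 (-0.92, -7.22 to 5.37) and H2-DMb1 (0.66, -1.06 to 2.75) included equal levels.

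In other macrophages Cd74 was at 4065 CPM in 1166 light-damaged and 9051 CPM in 244 control cells (2.23-fold lower, 2.18 to 2.27). H2-Ab1 was at 1181 and 1861 CPM (1.57-fold lower, 1.51 to 1.64), H2-Aa at 1396 and 1967 CPM (1.41-fold lower, 1.35 to 1.47), and H2-Eb1 at 1061 and 1341 CPM (1.26-fold lower, 1.20 to 1.33). The H2-M chains did not move together: H2-DMb1 was at 134 CPM in light-damaged and 170.1 CPM in control cells (1.27-fold lower, 1.10 to 1.46), and H2-DMa at 283 and 252 CPM, a ratio of 1.12 (1.00 to 1.26). Ciita gave 29 UMIs in light-damaged and 3 UMIs in control cells, or 2.29 and 2.24 CPM. Of the 6 measured members 2, Cd74 and H2-Ab1, were over 1.5-fold lower and 0 higher, against 28.4% of 5857 genes lower and 22.9% higher, so the count is near that of genes in general. Their median log2 ratio was -0.42, beside -0.01 over all measured genes.

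The difference in other macrophages depends on where the class ends. With the upper limit halved, which kept 608 light-damaged and 121 control cells, the log2 ratio of the sum was -0.14 in place of -0.88, and H2-Aa, H2-Ab1, H2-Eb1 and H2-DMb1 had log2 ratios of 0.14, 0.15, 0.33 and 0.72. With each cell counted equally the log2 ratio of the sum was -0.25. With only cells that pass 20 pan-macrophage UMIs per 10000 it was -1.10, and that of H2-DMa was -0.04 in place of 0.16.

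Whether all cells shifted or fewer cells were high was read from single cells, each thinned at random to 2700 UMIs, with a cell called high at 20 or more class II UMIs per 10000. Of the control cells 527 were too shallow and left out. In both libraries a few cells carried nearly all of the signal: high cells were 6.45% of light-damaged (415 of 6430; 5.87% to 7.08%) and 5.94% of control cells (196 of 3297; 5.16% to 6.81%). Without thinning they were 6.41% of light-damaged and 5.65% of control cells, and held 91.4% and 89.7% of all class II UMIs. Cells near the limit, from 10 to 40 UMIs per 10000, were 5.12% of light-damaged and 5.19% of control cells.

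**Figure D2:**
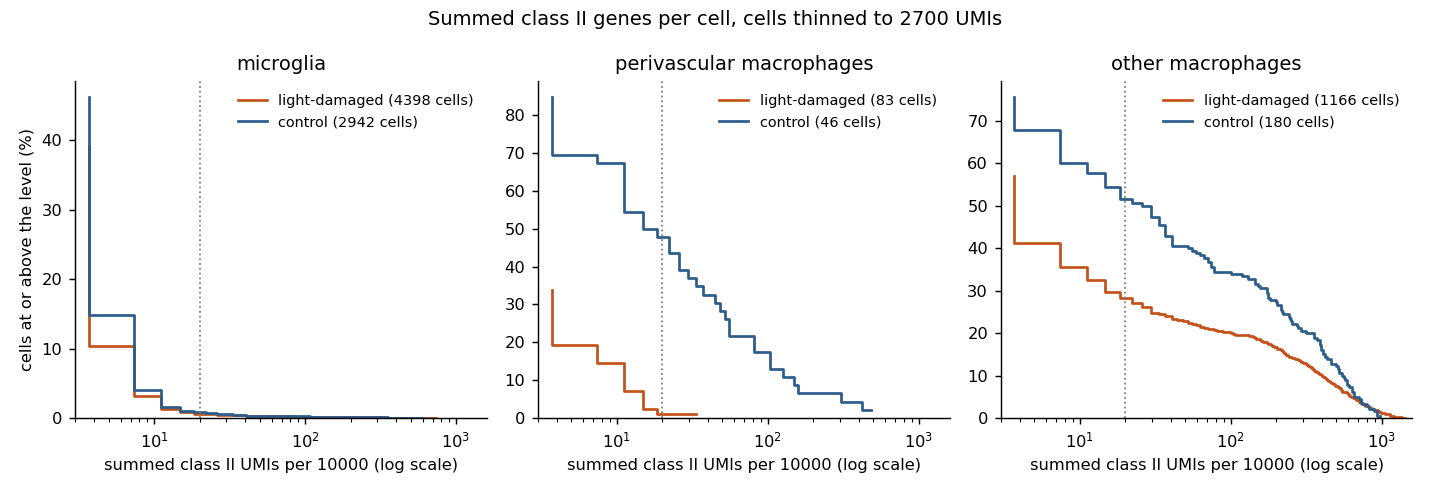
Share of cells (y axis, percent) with at least the summed class II level on the x axis (UMIs per 10000, log scale), light-damaged in orange and control in blue, with a dotted line at 20. The light-damaged curve lies below the control curve in perivascular macrophages at every level shown. The curves of other macrophages cross at the highest levels, where the light-damaged curve runs on to 1419 and the control curve to 974 UMIs per 10000.

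In perivascular macrophages both the share and the levels were lower. One of 83 light-damaged cells was high, 1.20% (0.0305% to 6.53%), against 22 of 46 control cells, 47.8% (32.9% to 63.1%). That light-damaged cell had 33.3 class II UMIs per 10000, while high control cells averaged 112. The remaining cells averaged 2.67 UMIs per 10000 in the light-damaged and 6.17 in the control library. Of the difference in mean level of -53.9 UMIs per 10000, -31.9 went with the share, -19.4 with the level in high cells and -2.65 with the level in the remaining cells. With the perivascular and microglia limits doubled, 0.00% of light-damaged and 13.3% of control cells were high, and the interval of that difference included 0.

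In other macrophages a smaller share of cells was high and the high cells were not lower. The median cell had 3.70 class II UMIs per 10000 in the light-damaged and 27.8 in the control library, and the cell at the 90th percentile 404 and 550. The share was 28.3% in light-damaged (330 of 1166; 25.7% to 31.0%) and 51.7% in control cells (93 of 180; 44.1% to 59.2%). Without thinning, when 64 shallow control cells stay in, it was 28.0% and 41.4%. Of the thinned cells low for the pan-macrophage genes, 1 of 21 light-damaged and 0 of 23 control cells were high. High cells averaged 347 UMIs per 10000 in the light-damaged and 297 in the control library, and the remaining cells 2.82 and 4.38. Of the difference in mean level of -55.0 UMIs per 10000, -74.4 went with the share, 20.3 with the level in high cells and -0.94 with the level in the remaining cells. Within the remaining cells the members went different ways. Thinned H2-DMa averaged 2.37 UMIs per 10000 in light-damaged and 1.23 in control cells, H2-DMb1 0.545 and 0.213, and H2-Ab1 0.474 and 0.724. Before thinning H2-Aa was seen in 19.3% and 4.90% of them, at median depths of 10352 and 3262 UMIs. There were 7.70 Cd74 UMIs for each H2-Aa UMI (6.74 to 8.82) and 20.3 (10.5 to 45.2). With the upper limit of the class halved the shares of high cells were 35.7% in light-damaged and 38.2% in control cells, a difference whose interval includes 0.

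In microglia high cells were rare, and most of the small difference lay in the many low cells. The share was 0.659% in light-damaged (29 of 4398; 0.442% to 0.946%) and 0.850% in control microglia (25 of 2942; 0.551% to 1.25%). The remaining microglia averaged 1.92 UMIs per 10000 in the light-damaged and 2.37 in the control library, 1.23-fold lower. Of the difference in mean level of -0.53 UMIs per 10000, -0.44 went with the remaining cells, -0.23 with the share and 0.14 with the level in high cells. In the remaining microglia 61.2% of light-damaged and 54.2% of control cells had no class II UMI at this depth.

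**Figure D3:**
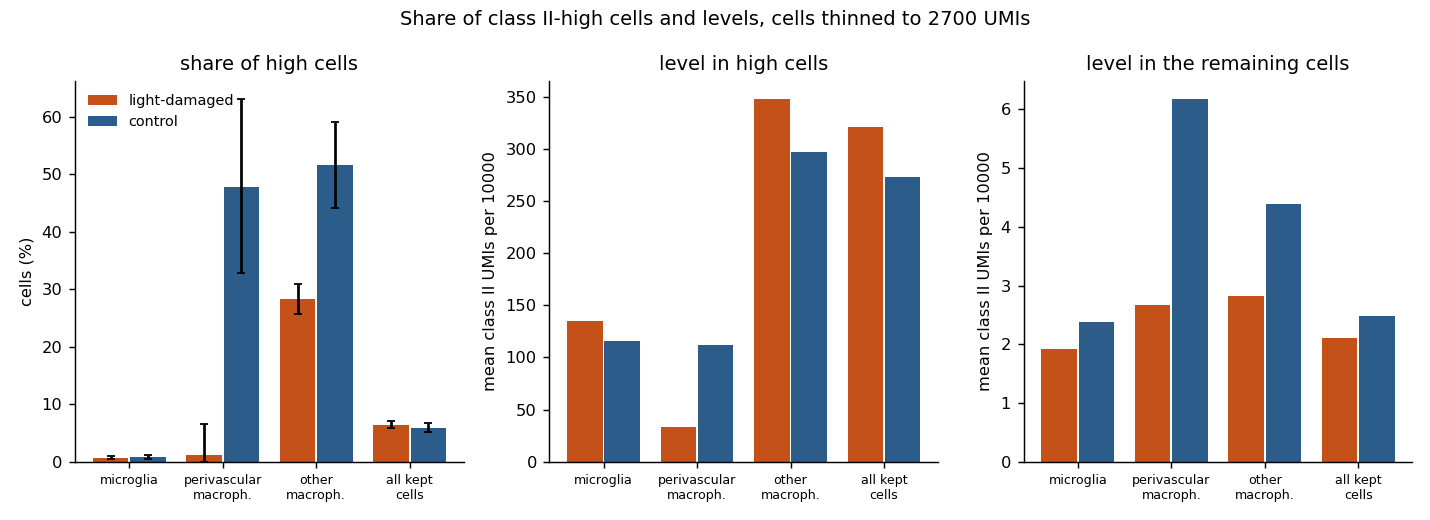
Share of cells high for class II (left, percent, with exact binomial intervals), and mean class II UMIs per 10000 in high cells (middle) and in the remaining cells (right), by class, light-damaged in orange and control in blue. The shares stand apart in perivascular macrophages (1.20% against 47.8%) and other macrophages (28.3% against 51.7%), and over all kept cells they do not (6.45% against 5.94%).

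The members were set side by side in high and remaining cells, pooled over all kept cells. H2-Aa, H2-Eb1, H2-Ab1 and Cd74 define these cells, so their values are a description. Over all kept cells H2-Aa was at 5340 CPM in 412 high and 14.1 CPM in 6018 remaining light-damaged cells, and at 3612 CPM in 216 high and 14.5 CPM in 3608 remaining control cells. The H2-M genes and Ciita were not used to choose the cells. Ciita had 33 UMIs in high and 4 UMIs in remaining light-damaged cells (108-fold by CPM, 38.4 to 420), and 8 and 0 UMIs in control cells. It was seen in 30 of 412 high light-damaged cells, so it went undetected in most of them at this depth. H2-DMb1 was 4.96-fold higher in high than in remaining light-damaged cells (4.67 to 5.28; 374 and 75.3 CPM) and 2.88-fold higher in control cells (2.59 to 3.19; 310.4 and 108 CPM). H2-DMa was 1.52-fold higher (1.45 to 1.60; 441 and 290 CPM) in light-damaged and 1.10-fold higher (1.01 to 1.19; 428 and 389 CPM) in control cells. Of all measured genes 8.1% in the light-damaged and 13.1% in the control library were over 1.5-fold higher in high cells, where 6 of 6 and 5 of 6 measured members were, and 23.7% and 41.7% were lower, where 0 members were. The choice of cells fixes the place of 4 of these members, and nothing is read from the counts. The remaining cells are mostly microglia, so the folds above also carry differences between the classes. Within control other macrophages H2-DMa was detected in 77.2% of high and 28.7% of remaining cells, and H2-DMb1 in 59.4% and 10.5%. Median depths there were 6678 and 3262 UMIs. Of the remaining cells there 40 were low for the pan-macrophage genes, and H2-DMa was detected in 10.0% of these. Within light-damaged other macrophages the shares were 91.1% and 78.2% for H2-DMa and 79.8% and 42.3% for H2-DMb1, at 8504 and 10352 UMIs.

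**Figure D4:**
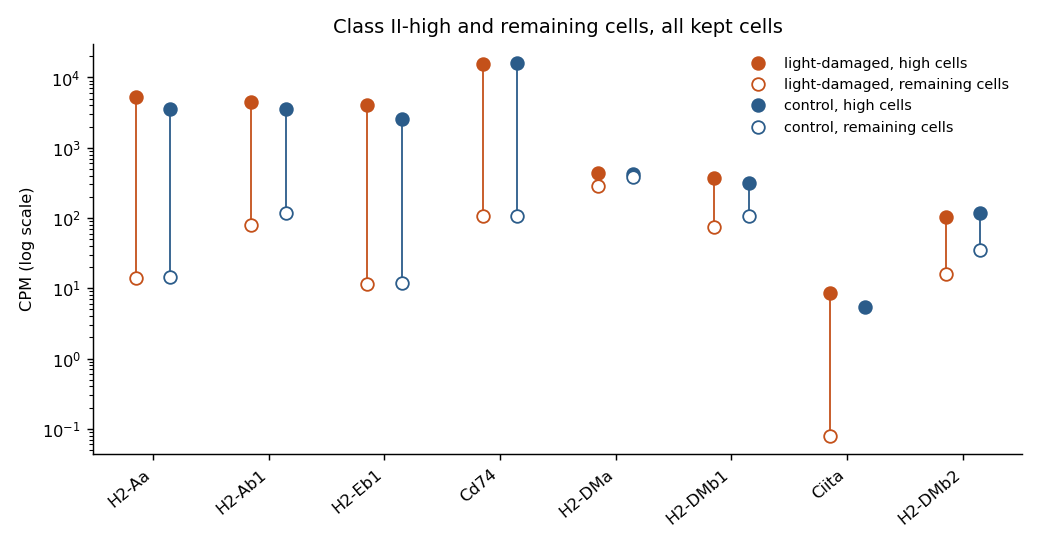
CPM (log scale) of the members and of H2-DMb2 in cells high for class II (filled) and in the remaining cells (open), light-damaged in orange and control in blue, over all kept cells; Ciita had 0 UMIs in remaining control cells. The gap spans 350.6-fold for light-damaged H2-Eb1 and 1.10-fold for control H2-DMa.

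H2-DMa was seen well outside the high cells. After thinning it was detected in 57.0% of light-damaged and 64.6% of control microglia with at most 6 and 9 UMIs in a cell, in 20 of 83 light-damaged and 23 of 46 control perivascular macrophages, and in 49.1% and 45.6% of other macrophages. In cells of the class of other macrophages that were low for the pan-macrophage genes it was detected in 9.52% of 21 light-damaged (1.17% to 30.4%) and 4.35% of 23 control cells (0.110% to 21.9%), below the shares in microglia. The level of free RNA was not measured. H2-Ab1 was also found in microglia low for class II. In remaining microglia there were 8.79 H2-Ab1 UMIs for each H2-Aa UMI in the light-damaged (7.85 to 9.87) and 8.64 in the control library (7.54 to 9.93), while high microglia had 1.00 and 0.945. H2-Ab1 stood at 91.6 CPM in remaining light-damaged and 123 CPM in remaining control microglia, and H2-Aa at 10.4 and 14.3 CPM. The cells low for pan-macrophage genes held 74 light-damaged and 22 control UMIs of the 4 core genes in all, and 1 of the light-damaged cells was high, so they give no level to set these values against.

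The balance of the genes within high cells differed between the libraries. High light-damaged cells had 2.87 Cd74 UMIs for each H2-Aa UMI (2.83 to 2.92) and high control cells 4.51 (4.38 to 4.64). In high perivascular macrophages of the control library the ratio was 8.58 (7.30 to 10.1). All 4 core genes were detected together in 88.6% of high light-damaged and 72.7% of high control cells, at median depths of 8425 and 6733 UMIs. Depth moves with this share, and its part in it was not tested. The UMIs come from the 3' ends of transcripts, and these ratios are compared only between cells, not between genes.

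Other genes of the pathway went both ways. Of 25 pathway genes found in the files, in other macrophages 17 were measured, 8 of them over 1.5-fold higher and 5 lower, against 22.9% of all measured genes higher and 28.4% lower, with a median log2 ratio of 0.44 beside -0.01 over all measured genes. The lysosomal thiol reductase gene Ifi30 was 3.70-fold higher (406 CPM in light-damaged and 110 CPM in control cells), and the cathepsin genes Ctsd and Ctsb, for proteases of the lysosome, were 3.59-fold higher (10082 and 2811 CPM) and 2.57-fold higher (6548 and 2548 CPM). Cd83, which encodes a surface protein known to protect class II from turnover, was 3.81-fold lower (648 CPM in light-damaged and 2472 CPM in control cells). March1, whose ligase marks class II for degradation, was 2.65-fold lower (27.1 and 71.6 CPM).

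In microglia 19 pathway genes were measured, 2 of them over 1.5-fold higher and 3 lower, against 5.44% of all measured genes higher and 6.82% lower, with a median log2 ratio of -0.05 beside -0.02. Ifi30 was 1.69-fold higher (352 CPM in light-damaged and 208 CPM in control microglia), and H2-DMb2, the second H2-M beta chain gene, was 2.07-fold lower (18.0 and 37.4 CPM). In perivascular macrophages 7 of 17 were higher and 4 lower, against 21.8% of all measured genes higher and 15.3% lower, with a median log2 ratio of 0.26 beside 0.09. Ctsl was 2.16-fold higher there (764 and 354 CPM) and Cd83 1.53-fold lower (1810 and 2776 CPM).

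Of 16 genes for interferon-gamma signalling and for receptors of signals known to restrain class II, 11 were measured in other macrophages, with 3 over 1.5-fold higher and 2 lower, near the 22.9% and 28.4% of all measured genes, and with a median log2 ratio of 0.28 beside -0.01. Among the higher genes were Ifngr2, which encodes a chain of the interferon-gamma receptor, at 184 CPM in light-damaged and 85.0 CPM in control cells (2.16-fold higher, 1.79 to 2.63), and the transcription factor gene Irf8, at 384 and 215 CPM (1.79-fold higher, 1.59 to 2.02). The lower genes were Irf1 and Cxcl10. Irf1, which encodes a transcription factor and is a direct interferon-gamma target, was at 43.9 CPM in light-damaged and 73.1 CPM in control cells (1.67-fold lower, 1.33 to 2.07). Cxcl10, a chemokine gene induced by interferons, was at 167 and 368 CPM (2.20-fold lower, 1.99 to 2.43).

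The high cells of the libraries carried different cell type markers. Of 6 monocyte genes, 4 were higher in the light-damaged library with intervals that exclude equal levels. Ccr2, the chemokine receptor of inflammatory monocytes, was at 136 CPM in high light-damaged and 4.69 CPM in high control cells (28.9-fold, 13.9 to 72.3). Ly6c2, a surface marker of such monocytes, had 138 UMIs in light-damaged and 0 UMIs in control high cells, at least 17.9-fold higher against a floor of 3 UMIs over the control group. Plac8 was at 68.5 and 22.8 CPM and Fn1 at 18.0 and 0.670 CPM. Hp, with 10 and 2 UMIs, and Chil3, with 8 and 0 UMIs, had intervals that include equal levels. Ccr7, the receptor of migrating dendritic cells, was at 44.2 CPM in high light-damaged and 1.34 CPM in high control cells (32.9-fold, 8.98 to 274). Fscn1, on the same dendritic cell list, ran the other way, at 24.6 and 166 CPM (6.77-fold lower, 5.31 to 8.67), and Zbtb46 had 5 and 6 UMIs. Perivascular genes ran the other way, with Mrc1 at 30.3 CPM in high light-damaged and 243 CPM in high control cells (8.02-fold lower, 6.49 to 9.98), F13a1 at 15.4 and 115 CPM, Cd163 at 2.35 and 48.9 CPM, and Lyve1 at 0.784 and 52.3 CPM. These genes were not used to call a cell high, though the perivascular genes set the classes.

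**Figure D5:**
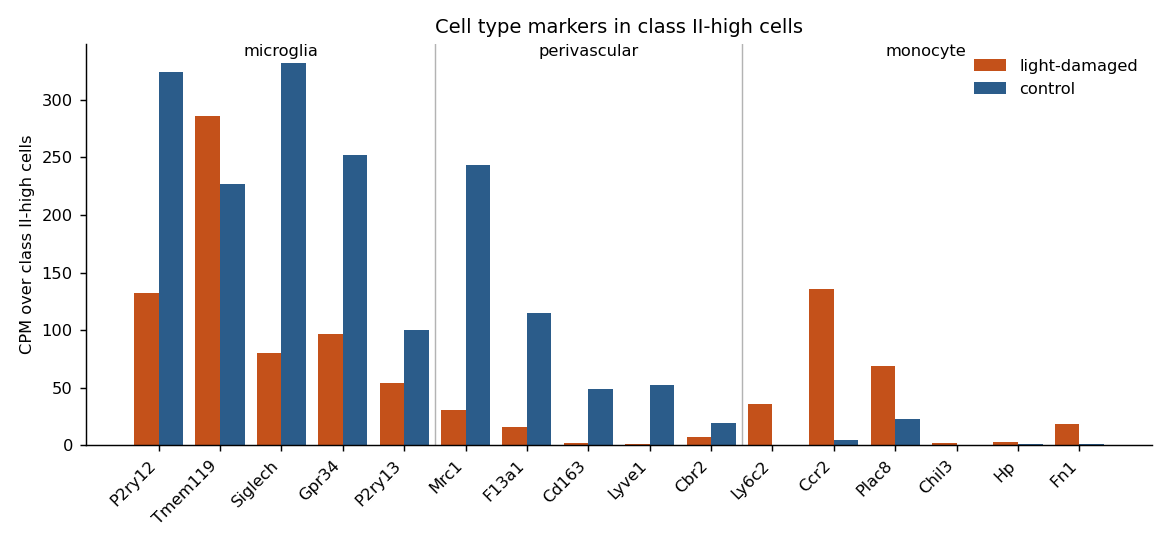
CPM of microglia, perivascular and monocyte markers over all cells high for class II, 412 light-damaged (orange) and 216 control (blue). Ccr2 stood at 136 CPM in light-damaged and 4.69 CPM in control high cells, and Mrc1 at 30.3 and 243 CPM.

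The classes that held the high cells differed too, but the summed microglia markers, which help set the class limits, were lower in light-damaged cells. The counts per class are therefore a description. Of the 412 high light-damaged cells 327 were other macrophages, 57 lay between the limits, 27 were microglia and 1 was a perivascular macrophage. Of the 216 high control cells 101 were other macrophages, 59 lay between the limits, 31 were microglia, 24 were perivascular macrophages and 1 passed both limits. The summed perivascular markers were at 56.0 CPM in high light-damaged and 479 CPM in high control cells, the 6 monocyte markers at 263 and 29.5 CPM, and the 10 pan-macrophage genes at 31913 and 24511 CPM. Within the pan-macrophage sum Csf1r ran the other way, at 790 and 1336 CPM (1.69-fold lower, 1.60 to 1.79). Cx3cr1 and Cd68 had intervals that include equal levels, and the rest were higher. The 5 microglia markers stood at 649 CPM in high light-damaged and 1234 CPM in high control cells. Among them Tmem119 ran the other way, at 286 and 227 CPM (1.26-fold higher, 1.11 to 1.43), while the others were lower. Of 9 conventional dendritic cell markers 8 had UMIs in high light-damaged and 6 in high control cells, but the defining Flt3 had 12 and 0 UMIs and Clec9a 0 and 1. The 4 measured T or NK cell markers were at 0 in the high cells of both libraries. Of 4 measured B cell markers, Cd79a and Ms4a1 were at 0 there, and the values of the others are not given here.

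Among high cells over all classes, 1 of 6 measured members was over 1.5-fold higher in the light-damaged library and 0 lower, against 25.0% of 4843 genes higher and 20.4% lower. H2-Eb1 was that member, at 4079 CPM in light-damaged and 2587 CPM in control cells. Of the pathway genes 17 were measured, with 3 higher and 4 lower, near the shares of all genes. Cd83 was at 808 CPM in high light-damaged and 3111 CPM in high control cells (3.85-fold lower), and Ifi30 at 448 and 145 CPM (3.08-fold higher). The costimulator gene Cd40 was at 61.4 CPM in high light-damaged and 21.5 CPM in high control cells (2.86-fold higher, 1.97 to 4.28).

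The genes whose counts ranked most like the summed class II genes over thinned cells included H2-DMb1 in other macrophages of both libraries, with Spearman's rho of 0.432 over 1166 light-damaged and 0.586 over 180 control cells, the highest rank in each. These are descriptions over cells of 1 library each, which share its ambient RNA. In light-damaged other macrophages 7 genes that were not part of the sum reached 0.3, among them Plbd1 (0.372), the ribosomal protein gene Rps9 (0.375) and the interferon-induced gene Ifitm3 (0.312). In control other macrophages 85 did, among them Cxcl2 (0.494), H2-DMa (0.472), Apoe (0.467) and H2-DMb2 (0.466). The pan-macrophage gene Lyz2 was also among them (0.468). Of those 180 control cells 23 were low for the pan-macrophage genes, and of the 1166 light-damaged cells 21 were. Their part in these values was not tested. In microglia no gene reached 0.3, and H2-DMb1 and H2-DMa were at 0.007 in light-damaged cells and at 0.012 and 0.009 in control cells. Over all kept control cells Ms4a7 reached 0.319, and over all kept light-damaged cells Plbd1 had the highest rho, 0.261.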

How the data were processed

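The authors deposited, for each of 2 libraries, UMI counts per gene and cell barcode. The submitters' processing notes name Cell Ranger 2.0.0 and the build mm10. The light-damaged library held 58187149 UMIs and the control library 20056338. Barcodes with at least 300 detected genes and at most 10% mitochondrial UMIs were kept. Scrublet (scanpy 1.11.5) at its automatic threshold marked 0 barcodes in either library, so those with the highest scores were removed at a rate of 0.8% per 1000 barcodes, 369 light-damaged and 124 control. Counts were summed per class and library and divided by all UMIs of the class (CPM). Ratios have exact Poisson 95% intervals and shares exact Clopper-Pearson 95% intervals, which cover counting error only. With 1 library a group there is no test, and a gene was counted as higher or lower past 1.5-fold, among genes with at least 20 CPM in either library. Shares of cells came from cells thinned to 2700 UMIs. The ratio intervals were checked on simulated Poisson counts only. Such counts lack the clustering of class II UMIs in few cells, so the check does not cover the spread from which cells were sampled. The members and lists were chosen with earlier results of these data known. Pathway genes were named by the size of their difference, up to 6 a class, and genes like the members at a rho of at least 0.3 in genes seen in at least 5% of cells, in classes of at least 100 cells. Markers with no value in the text, such as those of neutrophils, endothelium and pericytes, served only to describe the classes. Some results on genes of the marker and interferon lists are not reported here. The alternatives tried were no doublet removal, no cell filter, deep cells only, other class limits, other high limits and thinning depths, equal weight per cell, a median-ratio scaling, and, chosen after seeing the data, cells low for class II alone. Analyses used Python 3.11.15, numpy 2.4.6, scipy 1.17.1 and pandas 2.3.3.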

Additional observations from a re-analysis of the deposited data

Results flagged for a closer look

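H2-DMa had opposite directions between the classes: its log2 ratio was 0.16 in other macrophages (283 CPM in light-damaged and 252 CPM in control cells), against -0.34 in microglia and -1.19 in perivascular macrophages. The difference between the classes was not tested, and with only cells that pass the pan-macrophage limit the log2 ratio in other macrophages was -0.04.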

How the results depend on the processing

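No paired analysis was possible because each group is 1 library. Of 45 alternatives for the summed class II level and the share of high cells, 24 stayed within the counting interval and 21 moved, none with a change of sign. The log2 ratio of the sum in microglia (-0.31) was -0.10 with doublets kept, -0.093 with no cell filter, -0.77 with the class limits moved and -0.41 in cells low for class II. In perivascular macrophages (-3.96) the same changes gave -4.15, -4.15, -2.46 and -1.07, and equal weight per cell gave -4.24. In other macrophages (-0.88) it was -0.84 with no cell filter, -1.02 in deep cells, -0.14 with the limits moved, -1.10 with pan-macrophage genes required, -0.27 in low cells and -0.25 with equal weight per cell. The share difference in microglia (-0.19 percentage points) was -0.90 with high cells from 10 UMIs per 10000 and -0.65 when thinned to 2000 UMIs. In perivascular macrophages (-46.6) it was -28.3 with high cells from 50 UMIs per 10000 and -13.3 with the limits moved, and in other macrophages (-23.4) it was -13.3 without thinning and -2.47 with the limits moved. Of the single members past 1.5-fold, H2-Eb1 in perivascular macrophages had a log2 ratio of 1.77 in low cells (-0.95 to 7.17) and H2-Ab1 in other macrophages 0.15 with the limits moved. Members within 1.5-fold changed sign too. In other macrophages H2-Aa, H2-Eb1 and H2-DMb1 reached 0.94, 0.87 and 0.94, H2-DMa reached -0.04, and Ciita ranged from -0.19 to 1.05. In microglia H2-Aa ranged from -1.16 to 0.40 and H2-Eb1 from -1.28 to 0.22. In perivascular macrophages H2-DMb1 ranged from -0.86 to 0.99. The causes were not tested. The 83 and 52 perivascular macrophages and the few Ciita UMIs limit what can be told apart there.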

Other observations

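Of the other class II pathway genes, 2 of 16 measured were over 1.5-fold higher and 6 lower in high than in remaining light-damaged cells, and 3 of 20 higher and 8 lower in control cells. Over all measured genes 8.1% and 13.1% were higher in high cells of the light-damaged and the control library, and 23.7% and 41.7% were lower. Ctsd, a cathepsin gene, was at 3691 CPM in high and 12686 CPM in remaining light-damaged cells, and at 2982 CPM in high and 9982 CPM in remaining control cells. Ctsl was at 487 and 1732 CPM in the light-damaged and at 436 and 1243 CPM in the control library. Cd40 ran the other way, at 61.4 CPM in high and 5.07 CPM in remaining light-damaged cells, and at 21.5 CPM in high and 0.851 CPM in remaining control cells. The classes of cell in the 2 sets differ too, since the remaining cells are mostly microglia. Within microglia Cd40 was at 71.6 CPM in high and 0.959 CPM in remaining light-damaged cells, and at 25.0 and 0.550 CPM in control cells. The high microglia were only 27 light-damaged and 31 control cells, and no interval is given for these values.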
